A study of Mus musculus with 93 samples.

Results

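WY14643 and fenofibrate, both synthetic agonists of the nuclear receptor PPARα, were compared directly in the liver of wild-type mice, without passing through the untreated controls. The comparison rests on 9 of the 93 arrays of the series, 4 from wild-type mice given WY14643 and 5 from wild-type mice given fenofibrate, with 1 array per mouse. All were male 129S1/SvImJ mice fasted for 4 h and then given 4 mg of agonist by gavage (400 µl of a suspension in carboxymethyl cellulose), and their livers were taken 6 h later. Dose, volume, vehicle and time were thus matched, but the labels give an age of 12 to 20 weeks for the WY14643 mice and of 8 to 24 weeks for the fenofibrate mice, so the agonist and the age range cannot be told apart. Values are set beside those of 3 wild-type controls given the vehicle alone (12 to 20 weeks) and of the same agonists in PPARα -/- mice (male, 129S4/SvJae, 5 mice per agonist with the same age ranges as in the wild-type groups). The PPARα -/- mice carry a deletion of the receptor in every tissue, and since their labelled strain differs from that of the wild-type mice, genotype and substrain cannot be told apart.

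PPARα is a transcription factor that pairs with the retinoid X receptor and, when a fatty acid or a drug occupies it, binds to elements near genes of fatty acid uptake, activation and oxidation. In hepatocytes it raises mitochondrial and peroxisomal oxidation, ketone body production and many lipid-droplet proteins, and it lowers part of the inflammatory and plasma-protein programme. Fenofibrate is an ester that has to be hydrolysed to fenofibric acid before it can bind the receptor. The comparison asks which genes stood at different levels 6 h after an equal mass of either agonist. It covers 1 pair of compounds at 1 dose and 1 time.

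All levels are log2 of the deposited signal, and a difference is always WY14643 minus fenofibrate on that scale, so that a difference of 1 is a doubling of the signal. A gene was read from its brightest probeset that carries no other symbol. A gene or probeset was called different where limma's moderated test, adjusted by Benjamini-Hochberg over 11412 probesets, gave an adjusted p under 0.05, and ± marks the standard error (SE) of a difference. The 9 arrays had a mean signal of 472 to 478 and a median log2 signal of 7.08 to 7.15. The sample titles name no run. The run used below is a grouping of arrays that holds these 9 and leaves out the groups labelled control2, C10:0, C18:2 and C18:3. In wild-type liver the mean signal of the groups left out was higher, for example 589 to 593 for control2 and 586 to 598 for C10:0. In a principal component analysis of the 27 wild-type arrays of the same run, the main component (34.1% of the variance) placed the WY14643 arrays at 37.7 to 42.5, the fenofibrate arrays at 15.4 to 23.1 and the controls at -29.5 to -27.1. Fenofibrate array 5 stood apart on the next component (13.2%), at -20 where the other fenofibrate arrays lay between 0.5 and 16.5, and control array 2 stood apart on a further one. The arrays numbered 5 of the other wild-type groups of the run that have one, labelled C18:1, C20:5 and C22:6, also lay low on that component (-42.9, -29.5 and -21.3), and the deviations of fenofibrate array 5 from its group mean correlated with theirs at 0.34, 0.52 and 0.31. The WY14643 group has no array 5, so what these arrays share falls on the fenofibrate side alone, and its part in the results was not tested beyond leaving that array out. Of 3 probesets of Ppara, 1 separated the 27 wild-type arrays (8.1 to 9.28) from the 29 PPARα -/- arrays of this run (5.94 to 7.41), and on it the WY14643 and fenofibrate arrays covered the same range (8.8 to 9.23 and 8.78 to 9.16). The summed signal of 20 hepatocyte markers was 162000 to 168000 with WY14643 and 164000 to 171000 with fenofibrate. That of 27 Kupffer cell and macrophage markers was 2320 to 3840 and 1710 to 5750, and no gene of the hepatocyte, Kupffer, endothelial, stellate, lymphocyte or neutrophil lists was called. In whole liver, fewer cells of a type and less RNA per cell cannot be told apart.

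The livers of the 2 groups differed in 144 of 6661 measured genes. Of these, 70 genes were higher with WY14643 (1.05% of all genes) and 74 were higher with fenofibrate (1.11%). The counts of called genes in each list below are to be read beside these shares. The genes higher with WY14643 were led by Cidec and Hilpda, proteins of lipid droplets, by Fabp4, a fatty acid binding protein of adipocytes, and by genes outside lipid metabolism such as Cpne5, Trpv2 and Lamb3. Those higher with fenofibrate included Ppp1r3c, a subunit that directs a phosphatase to glycogen, and by Derl3 and Sdf2l1 of the endoplasmic reticulum. The median fitted difference was 0.74 among the genes higher with WY14643 and -0.70 among those higher with fenofibrate, and 24 and 21 genes, respectively, differed by at least 1. Over all genes, 3017 differences were positive and 3644 negative, with a median of -0.02. By probeset, 212 were called (109 higher with WY14643, 103 higher with fenofibrate). Of these, 125 were also called when the compared arrays alone gave the spread, a fit that called 271. At the unadjusted p under 0.01 used in the study, 660 probesets (5.78%) passed, where 114 would by chance.

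The number of genes called depended on single mice. Without WY14643 array 2, 36 genes were called higher with WY14643 and 24 higher with fenofibrate; without fenofibrate array 3 the counts were 44 and 27. Leaving out WY14643 array 3 gave 47 and 38, WY14643 array 4 gave 42 and 37, fenofibrate array 1 gave 52 and 46, fenofibrate array 2 gave 62 and 42, and fenofibrate array 4 gave 55 and 38. Without fenofibrate array 5, the array that stood apart, the counts were 74 and 76. Cidec, Cpne5, Trpv2, Hilpda, Lamb3, Cnnm4 and Synj2 (higher with WY14643) and Atp8b1, Hal, Shfl and Trim14 (higher with fenofibrate) were called under every alternative that was run, each array left out included.

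Cidec showed the largest difference of any gene. It encodes a protein that lets lipid droplets fuse and grow, and it is abundant in adipose tissue. Its log2 signal was 7.65, 8.79, 8.67 and 8.59 in the WY14643 mice and 4.66, 6.35, 4.66, 4.35 and 5.11 in the fenofibrate mice, against 3.14, 3.99 and 3.41 in the controls. Every WY14643 mouse lay above every fenofibrate mouse, and the difference was 3.40 ± 0.57 (95% interval 2.24 to 4.55, adjusted p = 2.6e-04), a 10.5-fold higher signal. Hilpda, an inhibitor of triglyceride lipolysis that coats lipid droplets, gave 5.5, 5.82, 5.65 and 6.09 with WY14643 and 3.81, 3.25, 3.47, 3.93 and 3.67 with fenofibrate, with controls at 2.92 to 3.52. All 5 fenofibrate values lay at or under the 5th percentile of their array (4.09 to 4.32 over the 9 arrays), a level treated here as a floor, so Hilpda was at least 2.86-fold higher with WY14643 (adjusted p = 1.1e-09). Pnpla2, the adipose triglyceride lipase that starts the breakdown of stored triglyceride, was also higher, at 8.41, 8.91, 8.97 and 8.86 against 7.95, 8.17, 7.84, 7.67 and 8.29 (difference 0.81 ± 0.19, adjusted p = 0.012). Its call was lost without WY14643 array 2 or 3, with an adjusted p of at most 0.064.

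These 3 were the called genes among 16 measured genes of lipid droplets and lipolysis. With the spread of the 9 arrays alone, Fitm2 and Mgll were called higher with WY14643 as well. Of the 16, 15 had a positive difference (median 0.27), and in 9 all WY14643 arrays lay above all fenofibrate arrays, as they did in 4.34% of all genes (289). The coat protein Plin2 stood at 13.05 against 12.82 (difference 0.23, 95% interval -0.16 to 0.63, adjusted p = 0.70) and was not called.

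Of 19 listed genes of adipocytes 6 were measured, of which 4 had a positive and 2 a negative difference. Those called were Cidec, Fabp4 and Mogat1. Fabp4 carries fatty acids in adipocytes and macrophages, and its signal was 8.15, 7.46, 7.85 and 7.33 with WY14643 and 6.05, 6.27, 6.14, 5.90 and 6.33 with fenofibrate. The fenofibrate values lay close to those of the controls (5.31, 6.13 and 6.09), and the difference was 1.56 ± 0.40 (2.95-fold, adjusted p = 0.027). The call was lost without WY14643 array 1, 2 or 3 or fenofibrate array 1, 3 or 4 (adjusted p of at most 0.094), and another probeset of Fabp4 gave 1.28 with an adjusted p of 0.054. Mogat1, an enzyme that makes diacylglycerol from monoacylglycerol, was at 5.13, 5.95, 4.53 and 4.17 against 4.09, 3.21, 4.08, 3.69 and 3.11, at least 1.62-fold higher with WY14643 (adjusted p = 9.3e-05), with controls at 1.73 to 1.98. With the spread taken from the 9 arrays alone, its adjusted p was 0.091.

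**Figure D1:**
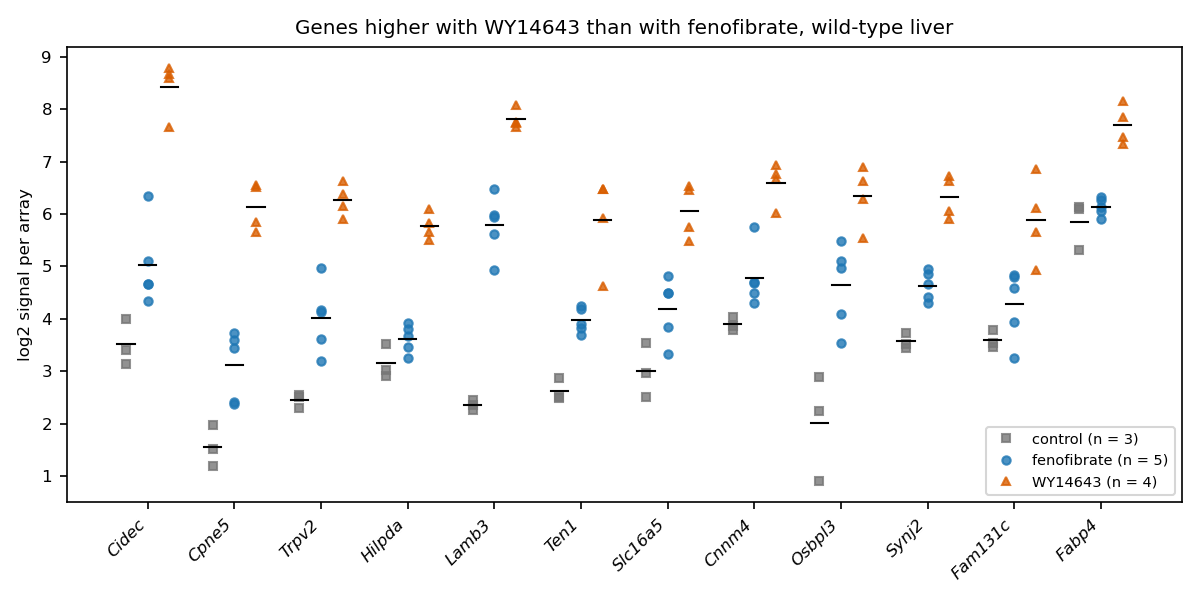
Log2 signal (y axis) in each control, fenofibrate and WY14643 array of wild-type liver, for the 12 genes with the largest called differences whose arrays did not overlap (x axis), with a bar at each group mean. In every gene the 4 WY14643 arrays lie above the 5 fenofibrate arrays; Cidec is at 8.43 and 5.03 on average.

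The other 9 of the 12 genes with the largest differences stand in none of the lipid lists. Cpne5, a copine that binds phospholipids when calcium rises, was at 6.52, 6.56, 5.65 and 5.84 with WY14643 and at 3.73, 3.44, 3.60, 2.38 and 2.42 with fenofibrate. It was at least 3.7-fold higher with WY14643, with the smallest adjusted p of any gene (5.3e-15), and its controls lay at 1.19 to 1.98. That p rests on a spread shared with groups far under the floor, such as the PPARα -/- agonist groups (1.41 to 1.94). The standard deviation of Cpne5 was 0.47 with WY14643 and 0.66 with fenofibrate. The size of the p thus does not measure the spread between the compared mice alone, although Cpne5 was also called with the spread of the 9 arrays alone. Lamb3, a chain of the basement membrane protein laminin, was at 7.66, 8.07, 7.75 and 7.73 against 6.47, 5.99, 5.61, 4.94 and 5.95 (difference 2.01 ± 0.25, adjusted p = 4.2e-07), with controls at 2.27 to 2.45. For Lamb3 both agonist groups thus stood far above the controls, and the WY14643 mice higher by 4.03-fold.

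Trpv2, a cation channel, was at 6.63, 6.39, 6.16 and 5.91 against 4.14, 4.97, 4.17, 3.20 and 3.62 (difference 2.25 ± 0.25, adjusted p = 2.0e-08), with controls at 2.30 to 2.55. Its fenofibrate values 3.20 and 3.62 lay under the floor, so this is a fitted difference and not a measured size. Synj2, a phosphatase of inositol lipids, was at 5.91 to 6.73 against 4.30 to 4.95 (difference 1.69 ± 0.26, adjusted p = 5.6e-05). Cnnm4, a magnesium transporter, was at 6.01 to 6.93 against 4.31 to 5.76 (difference 1.80 ± 0.31, adjusted p = 3.9e-04). Ten1, part of a complex that caps telomeres, was at 4.63 to 6.48 against 3.70 to 4.25, at least 3.09-fold higher with WY14643 (adjusted p = 2.8e-04). Fam131c was at 4.93 to 6.86 against 3.26 to 4.83 (difference 1.6 ± 0.27, adjusted p = 2.9e-04), and its adjusted p was 0.081 with the spread of the 9 arrays alone.

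Slc16a5, a monocarboxylate transporter, and Osbpl3, an oxysterol-binding protein, were called with less margin. Slc16a5 was at 5.48 to 6.54 against 3.33 to 4.81 (difference 1.86 ± 0.44, adjusted p = 0.016), and was not called without WY14643 array 2 or 4 or fenofibrate array 2 or 3 (adjusted p of at most 0.093). Osbpl3 was at 5.55 to 6.89 against 3.54 to 5.48 (difference 1.70 ± 0.46, adjusted p = 0.038), and was not called without WY14643 array 1, 2 or 4 or fenofibrate array 3 or 5 (adjusted p of at most 0.14), nor with the spread of the 9 arrays alone (0.065). Il1rn, the interleukin-1 receptor antagonist, was the 1 called gene of 30 acute phase proteins, at 7.19, 6.91, 6.88 and 6.54 against 5.97, 5.00, 5.06, 5.07 and 6.22 (difference 1.42 ± 0.33, adjusted p = 0.013, and 0.052 without fenofibrate array 3). Of the 30, 6 had a positive and 24 a negative difference (median -0.19, and 0.48 in PPARα -/- liver). Ccng2, a cyclin linked to growth arrest, was at 7.94 to 8.66 against 7.15 to 7.48 (difference 0.95 ± 0.21, adjusted p = 0.0066, and 0.056 without WY14643 array 4).

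The established PPARα targets were mostly a little higher with WY14643. Of 24 measured, 2 were called higher with WY14643, Hadha and Acadm (1.05% of all genes were), and 23 had a positive difference with a median of 0.31. In 12 of the 24 all WY14643 arrays lay above all fenofibrate arrays, as they did in 4.34% of all genes, and 10 of the 24 intervals lay above 0. Others stood at nearly the same mean in both groups. Ehhadh, the peroxisomal bifunctional enzyme, had a mean log2 signal of 13.13 with WY14643, 12.94 with fenofibrate and 10.46 in the controls. Its difference was 0.19 (95% interval -0.20 to 0.58, adjusted p = 0.78), so the data allow at most 0.58 on the log2 scale in favour of WY14643. Cyp4a14, a fatty acid omega-hydroxylase, was at 12.65 and 12.55 with controls at 9.14 (difference 0.10, interval -0.62 to 0.83). Fabp1, the liver fatty acid binding protein, was at 14.37 and 14.36 (interval -0.18 to 0.21), and Acaa1b, a peroxisomal thiolase, at 13.92 and 13.81 (interval -0.25 to 0.48). For Vnn1, a pantetheinase (difference 0.29), and Fgf21, a fasting hormone of the liver (difference 0.35), the intervals also included 0, from -0.28 to 0.87 and from -0.40 to 1.09.

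Pdk4 was the target with the largest difference. The kinase turns off pyruvate dehydrogenase and so spares glucose when fat is burned. Its signal was 11.84, 12.06, 11.94 and 12.02 with WY14643 and 10.51, 10.05, 9.24, 10.70 and 10.97 with fenofibrate, with controls at 2.89, 4.26 and 3.66. The groups did not overlap, and the difference was 1.67 (interval 0.51 to 2.84) with an adjusted p of 0.13 in the fit of all 56 arrays of the run and of 0.028 when the 9 arrays alone gave the spread. Cd36, a fatty acid translocase, was at 9.77, 9.42, 9.79 and 9.73 against 9.06, 8.65, 8.44, 9.21 and 8.83 (difference 0.84, interval 0.30 to 1.38, adjusted p = 0.09, and 0.033 with the 9 arrays alone). A dimmer probeset of Cd36 gave 1.71 with an adjusted p of 2.3e-04, and a further one 0.74 with an adjusted p of 0.16. Acot4, a peroxisomal acyl-CoA thioesterase, differed by 0.69 (interval 0.14 to 1.25, adjusted p = 0.22, and 0.041 with the 9 arrays alone). Acot2 was at 8.21 and 8.26 on its brightest probeset (interval -0.65 to 0.53), but at 6.81 and 5.5 on another, which was called (adjusted p = 7.8e-04). With the spread of the 9 arrays alone, 6 of the 24 targets were called higher with WY14643: Acot4, Cd36, Cpt2, Hadha, Pdk4 and Slc25a20. In that fit 83 of all 6661 genes were called higher with WY14643.

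**Figure D2:**
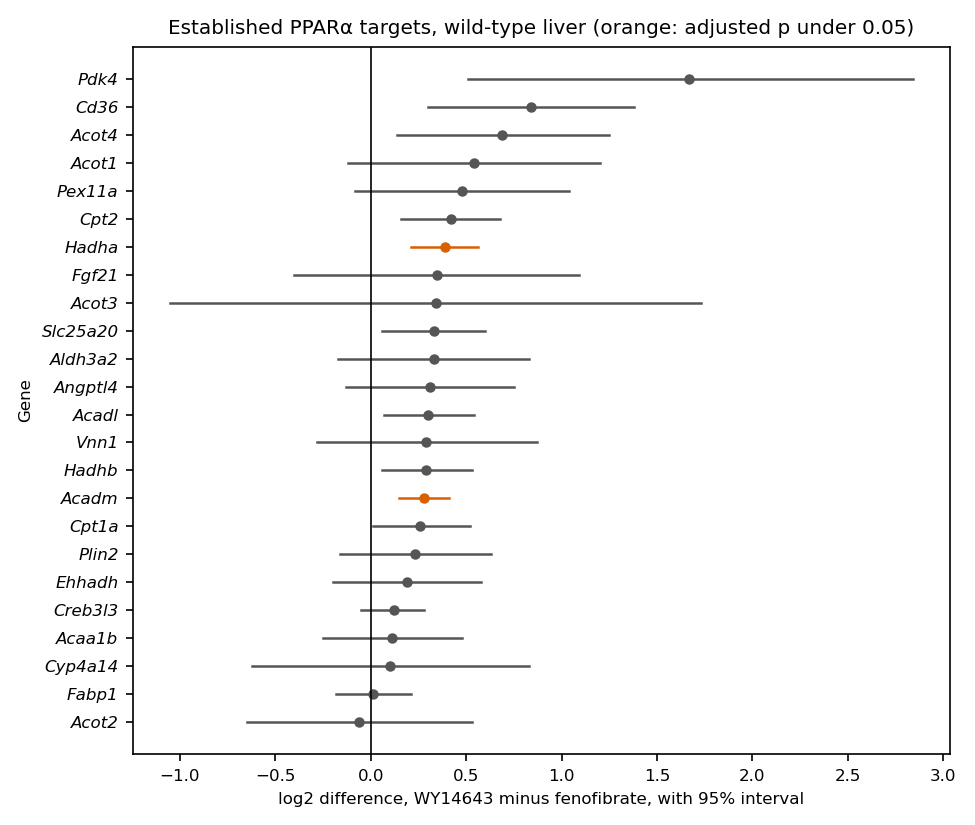
Difference in log2 signal between WY14643 and fenofibrate (x axis) for the 24 measured PPARα targets (y axis), with 95% intervals from the limma fit of 56 arrays; orange marks Hadha and Acadm. All but Acot2 lie to the right of 0, and 14 of the 24 intervals include 0.

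Several enzymes of fatty acid oxidation were higher with WY14643. Hadha, the alpha subunit of the mitochondrial trifunctional protein, was at 10.87, 11.02, 11.07 and 11.09 with WY14643 and 10.63, 10.75, 10.58, 10.56 and 10.62 with fenofibrate, with controls at 9.78 to 10.18 (difference 0.39 ± 0.09, adjusted p = 0.011). Acadm, the medium-chain acyl-CoA dehydrogenase, differed by 0.28 ± 0.06 (adjusted p = 0.012) and Acad11 by 0.29 (adjusted p = 0.049). These 3 were called of 21 genes of mitochondrial oxidation, of which 17 were positive (median 0.19). Among 20 peroxisomal oxidation genes 16 were positive and 4 negative (median 0.12), and Acot8 (0.64, adjusted p = 0.035), the fatty acid importer Abcd3 (0.38, adjusted p = 0.0072) and the multifunctional enzyme Hsd17b4 (0.34, adjusted p = 0.0038) were higher with WY14643. Nudt7, which cleaves coenzyme A in peroxisomes, was higher with fenofibrate (-0.51, adjusted p = 0.039), with means of 11.38 and 11.89 against 12.32 in the controls. Of 9 omega-oxidation genes 6 were positive and 3 negative (median 0.06), none was called and none had arrays that did not overlap.

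Of 16 genes of peroxisome biogenesis, the membrane import proteins Pex14 (0.41, adjusted p = 0.045) and Pex13 (0.35, adjusted p = 0.0059) were called higher with WY14643. None of the 6 carnitine shuttle genes was called in the fit of 56 arrays, although all 6 differences were positive (median 0.37) and 4 had arrays that did not overlap. Those 4, Slc22a5, Crat, Cpt2 and Slc25a20, were called with the spread of the 9 arrays alone (adjusted p = 0.028, 0.015, 0.035 and 0.043). Slc27a4, a fatty acid transport protein, was called higher with WY14643 (0.60, adjusted p = 0.014), with fenofibrate array 1 inside the range of the WY14643 arrays. The 1 probeset of the series that carries the name of the muscle-type carnitine palmitoyltransferase Cpt1b also carries 2 other symbols, so it names no gene here; it was at 6.09 with WY14643, 3.76 with fenofibrate and 1.81 in the controls (difference 2.33 ± 0.16, adjusted p = 5.3e-15).

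Several of these calls were close to the threshold. Leaving out 1 array at a time, Acad11 was called only without fenofibrate array 2 or 5 (adjusted p up to 0.17), Acot8 and Nudt7 only without WY14643 array 1 or fenofibrate array 5 (up to 0.11 and 0.12), and Pex14 only without fenofibrate array 1 or 5 (up to 0.18). Acadm lost it without WY14643 array 2 or fenofibrate array 3 (up to 0.091), Hadha without WY14643 array 4 (0.051) and Slc27a4 without WY14643 array 2 or fenofibrate array 3 or 5 (up to 0.10). With the spread of the 9 arrays alone, Acadm (0.092), Acad11 (0.13), Hsd17b4 (0.06), Pex14 (0.05) and Slc27a4 (0.13) were not called. Abcd3, Hsd17b4 and Pex13 were called whichever array was left out.

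PPARα with its partner receptor recognizes a direct repeat of AGGTCA with 1 base between the repeats, known as DR1. RefSeq promoter windows of mouse build GRCm38.p6, from 250 bases before to 50 bases after the start of a gene, were searched on both strands for AGGTCANAGGTCA with at most 2 mismatches. Such a match stands in 4.4% of 27025 genes with a window, in 6 of 21 PPARα targets (28.6%), in 2 of 58 genes called higher with WY14643 (3.45%) and in 3 of 55 called higher with fenofibrate (5.45%). None of 10 windows of the genes with the largest differences in favour of WY14643 held one. The 6 targets with a match were Cd36, Acot4, Slc25a20, Plin2, Creb3l3 and Fabp1, with a median difference of 0.28, against 0.33 for the 15 without. The windows of Fabp1 (chr6:71199629-71199928, plus strand, 1 mismatch), which had the smallest difference of the 6, and of Cd36 (chr5:17835847-17836146, minus strand, 2 mismatches), which had the largest difference of the 6, are shown 5′ to 3′ along the gene with the match in capitals, which in both reads on the reverse strand. A match of letters is not a measured binding site.
Fabp1: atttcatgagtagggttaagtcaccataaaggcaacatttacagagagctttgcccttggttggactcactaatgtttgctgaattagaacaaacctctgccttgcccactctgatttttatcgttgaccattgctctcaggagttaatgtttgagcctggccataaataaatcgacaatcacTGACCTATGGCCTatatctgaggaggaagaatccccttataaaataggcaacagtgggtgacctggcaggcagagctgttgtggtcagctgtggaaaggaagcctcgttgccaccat
Cd36: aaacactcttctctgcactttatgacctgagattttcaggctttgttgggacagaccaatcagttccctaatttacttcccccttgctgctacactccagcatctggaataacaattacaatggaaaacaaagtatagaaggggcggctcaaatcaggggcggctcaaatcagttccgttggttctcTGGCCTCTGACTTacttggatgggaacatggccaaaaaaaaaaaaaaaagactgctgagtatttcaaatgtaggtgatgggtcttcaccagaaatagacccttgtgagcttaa

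Hspa1a and Dnaja1 were the heat shock genes called, both higher with WY14643. Hspa1a, an inducible heat shock protein, was at 6.27, 7.57, 3.08 and 7.99 with WY14643 and at 1.99, 2.94, 2.07, 3.61 and 3.72 with fenofibrate, with controls at 1.52 to 2.13. WY14643 array 3 lay inside the fenofibrate range and under the floor like the fenofibrate arrays. The difference was called (adjusted p = 0.034) but has no measured size. Dnaja1, a cochaperone, was at 10.97, 11.40, 11 and 11.46 against 10.58, 10.78, 10.43, 10.61 and 11.09 (difference 0.51 ± 0.13, adjusted p = 0.036), with fenofibrate array 5 inside the WY14643 range. These were the 2 called of 23 heat shock and chaperone genes, 21 of which had a positive difference (median 0.50). In PPARα -/- liver the median of the list was 0.23. The near-identical gene Hspa1b, chosen after its value was seen, was at 11.44 and 9.63 (difference 1.80, interval 0.28 to 3.32, adjusted p = 0.25), and probes of this pair may read both transcripts. Hspa1a lost its call without WY14643 array 1, 2 or 4 or fenofibrate array 1, 2 or 3 (adjusted p up to 0.16), and Dnaja1 without WY14643 array 2 or 4 or fenofibrate array 1, 3 or 4 (up to 0.16). With the spread of the 9 arrays alone the adjusted p was 0.085 for Hspa1a and 0.13 for Dnaja1. In that fit Hsp90aa1 was the 1 called gene of the list, higher with WY14643.

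A pair of endoplasmic reticulum genes was lower with WY14643. Derl3, which helps to move misfolded proteins out of the endoplasmic reticulum, was at 2.49, 2.31, 2.29 and 2.63 with WY14643 and 3.43, 6.05, 4.52, 5.19 and 2.79 with fenofibrate. The WY14643 values lay at the floor and the fenofibrate values spread from floor to 6.05. Fenofibrate arrays 1 and 5 lay under the floor too, so the difference (adjusted p = 0.007) has no measured size. The controls stood at 2.91, 2.52 and 3.10, near the WY14643 mice. Sdf2l1, a component of a chaperone complex of the same compartment, was at 3.51, 3.54, 4.33 and 3.96 against 5.45, 6.41, 6.01, 6.33 and 4.45 (difference -1.90 ± 0.52, adjusted p = 0.04), with controls at 4.63, 6.30 and 4.33. The WY14643 values 3.51, 3.54 and 3.96 of Sdf2l1 lay under the floor, so its difference is a fitted value and not a measured size. Fenofibrate array 5 was the lowest fenofibrate array for both genes.

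No other member of the unfolded protein list was called in the fit of all arrays of the run. Of 28 measured genes 2 were called, 11 differences were positive and 17 negative, and the median was -0.11. Hspa5, the main chaperone of the endoplasmic reticulum, was at 11.49 and 11.38 (difference 0.10, interval -0.32 to 0.53). Sdf2l1 lost its call without any of the WY14643 arrays and without fenofibrate array 1, 2, 3 or 4 (adjusted p up to 0.15), so its call held only without fenofibrate array 5. Derl3 was called in all 9 cases, but its adjusted p was 0.11 with the spread of the 9 arrays alone. With that spread, Sdf2l1 and Pdia6 were the 2 called genes of the list, both higher with fenofibrate.

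A known element of such promoters is the ER stress response element, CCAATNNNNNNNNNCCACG. An exact match on either strand stands in 0.137% of the 27025 genes with a window (37 genes) and in 9 of 26 genes of the unfolded protein list (34.6%). The 9 genes were Creld2 (0.46), Hspa5 (0.10), Syvn1 (0.05), Hsp90b1 (-0.05), Canx (-0.15), Calr (-0.26), Dnajc3 (-0.46), Pdia6 (-0.61) and Derl3 (-1.96), where the number is the fitted difference in wild-type liver. That of Derl3 is set against WY14643 arrays at the floor and is no measured size. Their median was -0.15, against -0.12 for the 17 without a match, and Sdf2l1 had no match in its window. The windows of Derl3 (chr10:75893148-75893447, plus strand), Pdia6 (chr12:17266339-17266638, plus strand) and Hspa5 (chr2:34771840-34772139, plus strand) are shown because they hold the same element. In the fit of all arrays of the run, Derl3 alone of the 3 genes was called (adjusted p = 0.007, against 0.079 for Pdia6 and 0.92 for Hspa5). With the spread of the 9 arrays alone the order was reversed: Pdia6 was called higher with fenofibrate, and Derl3 and Hspa5 were not called. Capitals mark the element, which reads on the reverse strand in Derl3.
Derl3: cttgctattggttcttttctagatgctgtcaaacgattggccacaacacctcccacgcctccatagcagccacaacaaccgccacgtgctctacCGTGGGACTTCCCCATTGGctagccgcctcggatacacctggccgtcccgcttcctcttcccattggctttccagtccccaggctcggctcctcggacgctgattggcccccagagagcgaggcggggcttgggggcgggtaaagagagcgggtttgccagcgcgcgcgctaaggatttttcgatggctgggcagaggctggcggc
Pdia6: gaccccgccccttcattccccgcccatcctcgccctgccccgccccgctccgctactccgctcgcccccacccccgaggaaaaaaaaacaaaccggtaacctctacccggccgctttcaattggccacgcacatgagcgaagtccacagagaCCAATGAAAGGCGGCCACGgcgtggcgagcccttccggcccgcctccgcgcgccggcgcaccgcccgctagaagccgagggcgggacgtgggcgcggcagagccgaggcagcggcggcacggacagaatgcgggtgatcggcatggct
Hspa5: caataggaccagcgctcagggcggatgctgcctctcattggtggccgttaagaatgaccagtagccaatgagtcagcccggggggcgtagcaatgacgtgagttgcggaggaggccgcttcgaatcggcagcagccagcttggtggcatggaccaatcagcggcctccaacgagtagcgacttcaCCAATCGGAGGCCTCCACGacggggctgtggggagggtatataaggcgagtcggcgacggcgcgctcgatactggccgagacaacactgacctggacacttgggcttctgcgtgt

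**Figure D3:**
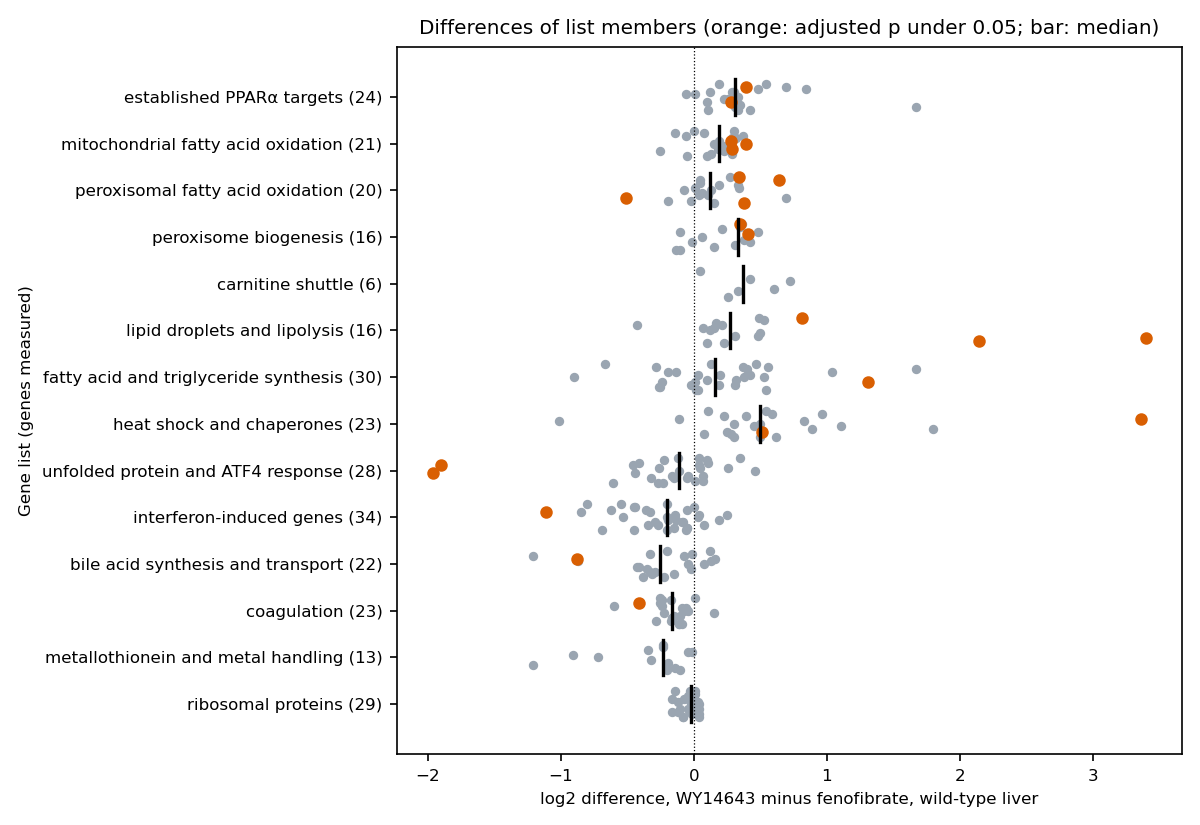
Difference in log2 signal between WY14643 and fenofibrate in wild-type liver (x axis) for the members of 14 gene lists (y axis, number of measured genes in parentheses); orange points were called and black bars are list medians. The medians of the oxidation, lipid droplet and heat shock lists lie right of 0 (0.50 for heat shock), and that of the 29 ribosomal protein genes at -0.02.

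Ppp1r3c was higher with fenofibrate. It encodes a protein that brings protein phosphatase to glycogen and favours glycogen synthesis. The WY14643 mice were at 3.05, 3.5, 2.98 and 2.98, all at the floor, the fenofibrate mice at 4.96, 6.08, 7.91, 4.04 and 5.29, and the controls at 7.18, 7.46 and 9.19. The groups did not overlap, and Ppp1r3c was called lower with WY14643 (adjusted p = 0.025). Fenofibrate array 4 lay under the floor too, so the difference has no measured size. Another probeset gave -1.31 with an adjusted p of 0.32. The call was lost without any of the WY14643 arrays or without fenofibrate array 2 or 3 (adjusted p up to 0.13), and was 0.073 with the spread of the 9 arrays alone. It was the 1 called gene of 15 genes of glycogen metabolism. Nfil3, a transcriptional repressor of the circadian output, was at 3.26, 3.42, 3.60 and 4.59 against 4.62, 5.42, 5.67, 5.40 and 4.33, with controls at 6.34 to 7.79. WY14643 array 4 lay above fenofibrate array 5, and the groups overlapped (fitted difference -1.37 ± 0.37, adjusted p = 0.042). The WY14643 values 3.26, 3.42 and 3.60 lay under the floor, so this difference has no measured size. Nfil3 lost its call in 6 of 9 cases, without WY14643 array 1, 2 or 3 or fenofibrate array 2, 3 or 4 (adjusted p up to 0.15), and with the spread of the 9 arrays alone (0.07).

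Hal and Atp8b1 were the 2 genes higher with fenofibrate with the smallest adjusted p. Hal, the histidine ammonia-lyase that starts histidine breakdown, was at 8.12, 7.41, 8.19 and 7.34 with WY14643, 8.83, 8.63, 9.13, 8.81 and 8.99 with fenofibrate and 9.83 to 10.10 in the controls (difference -1.11 ± 0.18, adjusted p = 2.0e-04). Atp8b1, a flippase of the canalicular membrane, was at 5.69, 6.47, 6.06 and 6.24 against 7.11, 7.50, 7.65, 7.30 and 6.71, with controls at 7.55 to 8.37 (difference -1.14 ± 0.18, adjusted p = 1.1e-04). For both genes the fenofibrate mice lay between the WY14643 mice and the controls. Cdo1, the cysteine dioxygenase, was at 11.13 to 11.36 against 11.62 to 11.91, with controls at 12.16 to 12.26 (difference -0.49, adjusted p = 0.0074). Hal and Cdo1 were the 2 called of 52 genes of amino acid breakdown.

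Trim14, Shfl and Irgm1 were each higher with fenofibrate. Trim14, a tripartite motif protein, was at 4.89, 4.35, 5.37 and 4.66 with WY14643 and 5.59, 5.69, 6.16, 6.07 and 6.21 with fenofibrate, with controls at 7.29 to 7.62 (difference -1.12, adjusted p = 0.0017). Shfl was at 4.57, 3.65, 4.59 and 4.29 against 5.47, 5.33, 5.86, 5.09 and 5.23 (difference -1.12, adjusted p = 9.2e-04). Irgm1, an interferon-induced GTPase, was at 5.41, 4.30, 6.00 and 5.22 against 6.24, 6.24, 6.89, 6.26 and 6.09 (difference -1.11, adjusted p = 0.014). Irgm1 was the 1 called of 34 interferon-induced genes, a list that holds neither Trim14 nor Shfl, of which 29 had a negative difference (median -0.20), and 9 of the 34 were at the floor in both groups. The median of this list in PPARα -/- liver was -0.12. Irgm1 lost its call without WY14643 array 2 or fenofibrate array 3 (adjusted p up to 0.16) and with the spread of the 9 arrays alone (0.089).

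Among the other large differences, Avpr1a, the vasopressin receptor of hepatocytes, was at 4.24, 3.20, 3.16 and 3.56 against 4.81, 5.63, 6.11, 4.38 and 4.37 (difference -1.52 ± 0.33, adjusted p = 0.0059, and 0.076 with the 9 arrays alone). Its controls were at 6.23 to 6.89. The WY14643 values 3.20, 3.16 and 3.56 of Avpr1a lay under the floor, so its difference is a fitted value and not a measured size. Carmil1, a regulator of actin capping, was at 3.35 to 4.08 against 4.85 to 5.62, at least 2.01-fold lower with WY14643 (adjusted p = 0.021). Hdac11, a histone deacetylase, was at 4.63 to 5.61 against 6.15 to 6.74 (difference -1.28, adjusted p = 0.036). Ppp1r14a, an inhibitor of a phosphatase, was at 2.30 to 3.22 against 3.65 to 4.53 (adjusted p = 0.045), both near the floor, while its controls were at 6.29 to 7.08. Cdh1, the E-cadherin that marks periportal hepatocytes, was at 4.68 to 5.58 against 5.51 to 6.71 (difference -1.24, adjusted p = 0.013, and 0.083 without WY14643 array 2). Without single arrays the adjusted p reached 0.078 for Carmil1 (lost without WY14643 array 2 or 3 or fenofibrate array 2), 0.16 for Hdac11 (without WY14643 array 1 or 2 or fenofibrate array 3 or 4) and 0.20 for Ppp1r14a (called only without fenofibrate array 2 or 5).

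**Figure D4:**
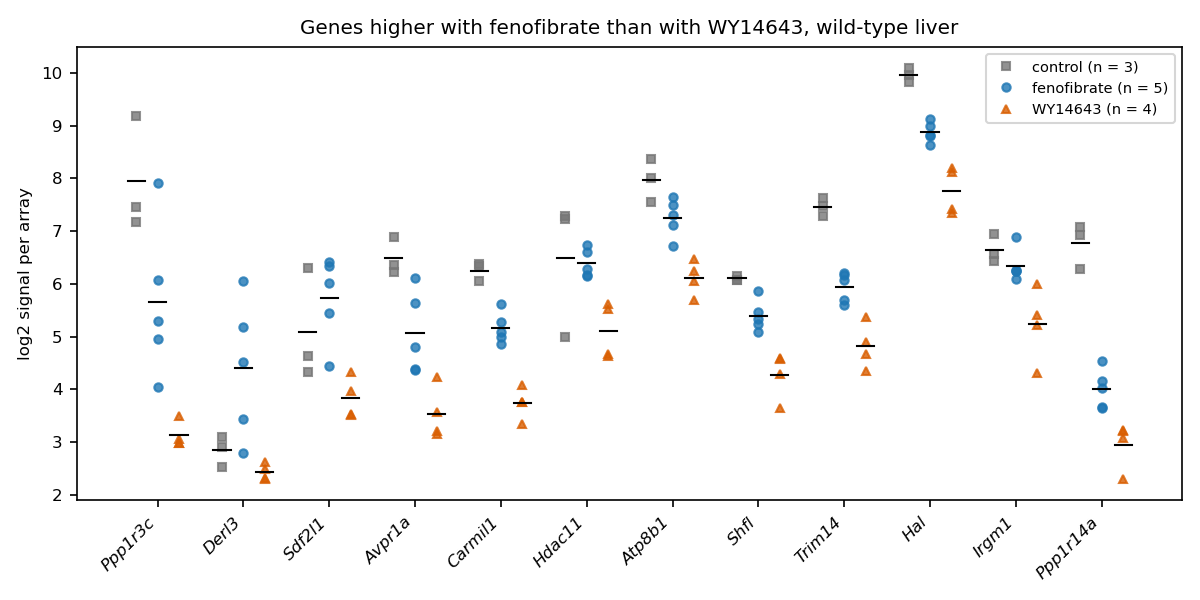
Log2 signal (y axis) in each control, fenofibrate and WY14643 array of wild-type liver, for the genes with the largest called differences in favour of fenofibrate whose arrays did not overlap (x axis), with a bar at each group mean. The 5 fenofibrate arrays of each gene lie above the 4 WY14643 arrays; Ppp1r3c is at 5.66 with fenofibrate and at the floor with WY14643 (3.13).

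Genes of bile acids, plasma proteins and the male liver mostly had negative differences, with few calls. All fenofibrate arrays lay above all WY14643 arrays in 4.05% of all genes (270). Of 22 genes of bile acid synthesis and transport, 18 had a negative difference (median -0.25), and Fgfr4, the receptor through which a gut hormone lowers bile acid synthesis, was called (4.77 against 5.65, controls 7.11, difference -0.88, adjusted p = 0.03). Cyp7a1, the rate-limiting enzyme of bile acid synthesis, was at 7.97, 7.07, 6.03 and 5.56 against 8.64, 7.70, 5.29, 9.11 and 8.59 (difference -1.21, interval -2.48 to 0.06, adjusted p = 0.41). Of 23 coagulation genes, 21 were negative (median -0.16), 4 had arrays that did not overlap, and Serpinf2, the inhibitor of plasmin, was called (10.47 against 10.88, controls 11.33, adjusted p = 0.031). None of 24 complement genes was called.

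Among 13 male-biased liver genes, 11 were negative (median -0.31) and none was called in the fit of 56 arrays. Hsd3b5, a steroid dehydrogenase of the male liver, was at 8.70, 7.37, 7.95 and 7.50 with WY14643 and 9.18, 10.05, 9.62, 9.50 and 9.18 with fenofibrate (difference -1.62, interval -2.60 to -0.65, adjusted p = 0.067, and 0.028 with the 9 arrays alone). The controls were at 10.83, 8.10 and 10.85. All 8 female-biased genes had positive differences (median 0.44), none was called, and 3 of the 8, Cd36, Acot3 and Acot4, are also listed PPARα targets. All mice were male. Cyp3a25 (-0.44, adjusted p = 0.022) and Cyp2r1, a vitamin D hydroxylase (-0.83, adjusted p = 0.026), were the called cytochromes, both higher with fenofibrate. Leaving out 1 array at a time, Fgfr4 was called only without WY14643 array 3 or fenofibrate array 5 (adjusted p up to 0.23), and Serpinf2 only without WY14643 array 1 or fenofibrate array 2 or 5 (up to 0.17). Cyp3a25 lost its call without WY14643 array 1, 2 or 3 or fenofibrate array 3 (up to 0.083), and Cyp2r1 without WY14643 array 2 or 4 or fenofibrate array 3 or 4 (up to 0.13). With the spread of the 9 arrays alone the adjusted p was 0.11 for Fgfr4 and 0.08 for Serpinf2.

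Of the genes that the study singles out, Txnip, an inhibitor of thioredoxin, was at 9.12, 8.62, 9.29 and 8.48 with WY14643 and 9.36, 9.37, 9.36, 9.87 and 10.36 with fenofibrate, with controls at 8.23 to 9.01. The arrays did not overlap, but the difference of -0.79 (interval -1.35 to -0.22) was not called (adjusted p = 0.15). Srebf1, the regulator of lipid synthesis, was at 9.09 and 9.38 (interval -1.09 to 0.52) and Lpin2, a phosphatidate phosphatase, at 10.68 and 10.35 (interval -0.10 to 0.74).

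In PPARα -/- liver, where the same agonists were given to 5 mice each, no probeset was called by limma (0% of 11412). At an unadjusted p under 0.05 there were 1025, and at the study's unadjusted p under 0.01 there were 288 (2.52%), where 114 would pass by chance. The genes that were higher with WY14643 in wild-type liver had a median difference of 0.04 in PPARα -/- liver, and those higher with fenofibrate a median of -0.14. Over all genes that median was 0. The sign was the same in PPARα -/- liver for 58 of the 74 genes higher with fenofibrate and for 43 of the 70 higher with WY14643. Cidec was at 2.47 to 2.86 with WY14643 and at 2.27 to 3.21 with fenofibrate in these mice. Without PPARα -/- WY14643 array 5, 16 probesets were called higher and 4 lower in this genotype. Leaving out PPARα -/- fenofibrate array 5 gave 5 and 2.

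A test of the difference between the genotypes called 23 genes (0.345% of 6661), 19 of which were also called in wild-type liver. Cidec (difference between genotypes 3.52, adjusted p = 0.031), Cpne5 (3.11, adjusted p = 3.8e-10), Trpv2 (2.12, adjusted p = 3.6e-04), Synj2 (2.09, adjusted p = 9.4e-04), Hilpda (2.03, adjusted p = 4.0e-05), Lamb3 (1.93, adjusted p = 0.0014) and Hadha (0.55, adjusted p = 0.029) were among them. These are fitted log2 differences, not measured sizes, where arrays lie at the floor. That was so for all wild-type fenofibrate arrays of Cpne5 and Hilpda, and the highest PPARα -/- value was 3.21 for Cidec, 1.94 for Cpne5, 2.83 for Trpv2 and 3 for Lamb3, all under the floor of the 9 wild-type arrays. For most genes called in wild-type liver the contrast between genotypes was thus not called, which does not show that it was the same in both. Sdf2l1, for example, differed by -1.90 in wild-type and by -1.08 in PPARα -/- liver, and the difference between these was not called (adjusted p = 0.82).

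For Ppp1r3c and Nfil3 the fitted differences had opposite signs in the 2 genotypes, and in PPARα -/- liver neither was called by itself. In PPARα -/- liver Ppp1r3c was at 9.17, 8.96, 9.41, 8.70 and 6.01 with WY14643 and 8.03, 6.08, 7.36, 6.38 and 7.19 with fenofibrate. That difference was 1.44 (interval 0.23 to 2.65) (adjusted p = 0.46), and the fitted difference between genotypes was -3.97 (adjusted p = 0.029), which has no measured size because the wild-type WY14643 arrays lie at the floor. Nfil3 had fitted differences of -1.37 in wild-type and 0.81 in PPARα -/- liver (adjusted p = 0.48 there, difference between genotypes -2.18, adjusted p = 0.045). The values -1.37 and -2.18 have no measured size, because most wild-type WY14643 arrays of Nfil3 lie under the floor. By probeset, the signed difference (wild-type minus PPARα -/-) was called above 0 for 23 and under 0 for 6. That sign does not tell in which genotype the difference was larger in size. The 6 became 0 without any one of WY14643 array 1 or 3, fenofibrate array 2, PPARα -/- WY14643 array 2, 3 or 4 or PPARα -/- fenofibrate array 4, and 15 without PPARα -/- fenofibrate array 3.

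**Figure D5:**
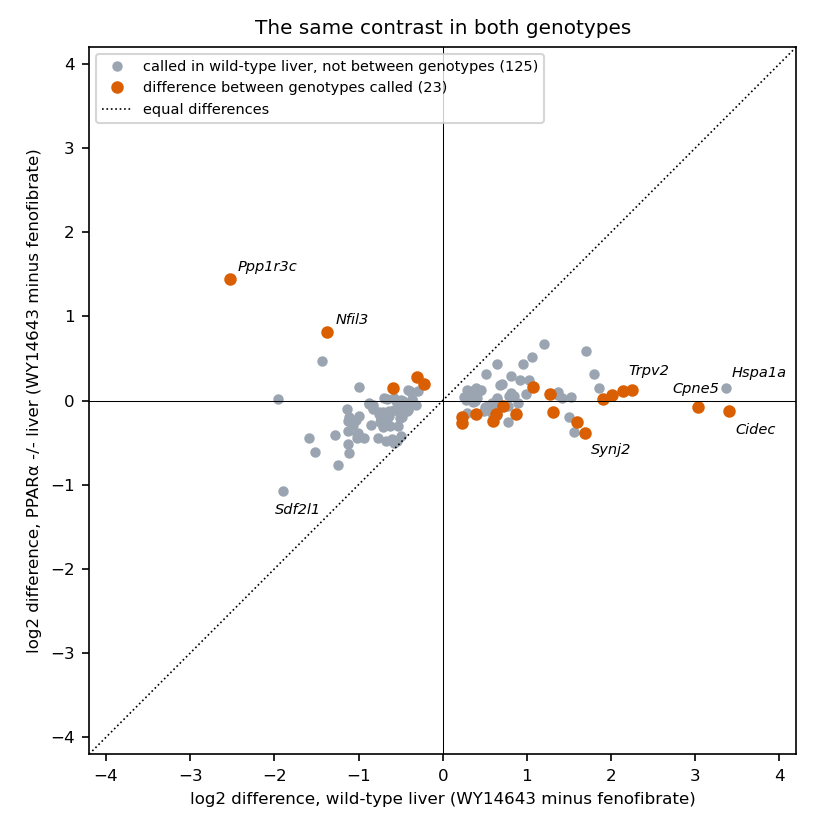
Difference in log2 signal between WY14643 and fenofibrate in wild-type liver (x axis) and in PPARα -/- liver (y axis). Grey marks the 125 genes called in wild-type liver whose difference between genotypes was not called. Orange marks the 23 genes whose difference between genotypes was called, and the dotted line marks equal differences. Most points lie near the horizontal line at 0, but 58 of the 74 genes higher with fenofibrate lie under it. Ppp1r3c stands at fitted values of -2.53 (its wild-type WY14643 arrays are at the floor) and 1.44.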

How the data were processed

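Liver RNA was hybridized to Affymetrix mouse genome arrays, 1 per mouse. The deposited values are linear intensities that the authors made with GC-RMA (version 2.20 in the submitters' processing notes), a quartile normalization and a filter on the inter-quartile range. Log2 was taken of 11463 probesets, and 51 control probesets were left out. limma (version 3.58.1, R 4.3.3) fitted 1 mean per group over the 56 arrays of the run (12 groups), which share 1 estimate of the spread, and p-values were adjusted by Benjamini-Hochberg over 11412 probesets. The method was run on simulated data with independent arrays, which hold nothing that arrays of the same number share. Of all probesets 10279 carry 1 symbol, 406 several and 727 none; a gene was read from its brightest single-symbol probeset. Where every array of a group lay at or under the 5th percentile of its array, a fold is a lower bound. No fold is given where arrays of the other group lay under that level too. Where only some arrays of a group lay under it, the difference is a fitted value and not a measured size.

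Named genes were the 12 largest called differences each way without overlap, up to 4 called genes per list, the genes the study names, the 6 largest differences between genotypes and the PPARα targets. The members and lists were chosen with earlier results of these data known. Lists were described by counts and medians without a test. The labels name no cages, and p-values of the main fit measure the spread between mice within all groups of the run. The number of arrays limits the precision. Alternatives covered the arrays in the fit, filters, scaling, an added constant, weights and each array left out.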

Additional observations from a re-analysis of the deposited data

Results flagged for a closer look

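In the 2 wild-type groups, 12 of 258 tested sets of values of named genes had 1 array far from the others, where chance gives about 1 in 20 (12.9). With WY14643, array 1 was low for Ccn2 (log2 signal 5.37) and Pfkfb3 (4.12), array 2 was high for Ppp1r3c (3.5) and array 4 low for Ppp1r14a (2.3). With fenofibrate, array 1 was high for Pex13 (9.02) and Tiparp (5.03), array 2 high for Cnnm4 (5.76) and low for Slc16a7 (7.63), array 3 high for Irgm1 (6.89), array 4 high for Mbl2 (10.67) and array 5 high for Cpt2 (10.86). Abcd3 had array 3 low (12.46).

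The difference between WY14643 and fenofibrate differed between wild-type and PPARα -/- liver for 23 genes by limma's test of that difference. The values are fitted log2 differences, with no measured size where the arrays lie at the floor, as for Ppp1r3c, Cpne5, Hilpda, Ten1 and Mogat1 in 1 wild-type group. For Nfil3 and Trpv2, some arrays of 1 wild-type group lay under the floor too. A positive value means that the WY14643 minus fenofibrate difference, sign included, was higher in wild-type liver. It does not tell in which genotype the difference was larger in size. The value was 3.52 for Cidec, 3.11 for Cpne5, 2.12 for Trpv2, 2.09 for Synj2, 2.03 for Hilpda, 1.93 for Lamb3, 1.89 for Ten1, 1.85 for Fam131c and 1.45 for Mogat1. It was 1.2 for Scyl2, 1.03 for Abhd1, 0.91 for Prkdc, 0.85 for Slc27a4, 0.79 for Psmd4, 0.78 for Apmap, 0.55 for Hadha, 0.5 for Etfdh and 0.43 for Chchd3. It was -3.97 for Ppp1r3c, -2.18 for Nfil3, -0.74 for Reps2, -0.6 for Usp9x and -0.42 for Fam8a1. Etfdh, Chchd3, Usp9x and Fam8a1 were not called in wild-type liver by themselves.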

How the results depend on the processing

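Of 129 named genes, 47 were called and 11 of these stayed called under every alternative run; 27 lost the call without some 1 array, and no called gene changed sign. In wild-type liver, probesets called higher with WY14643 and higher with fenofibrate numbered 109 and 103. They numbered 563 and 605 with array weights, 303 and 357 at an unadjusted p under 0.01, and 70 and 62 when a fold of at least 1.5 was also asked for. With 1 array left out they ran from 53 to 112 and from 32 to 106. In PPARα -/- liver, where none was called, all 93 arrays gave 4 and 0, array weights 90 and 62 and an unadjusted p under 0.01 gave 164 and 124, and 1 array left out gave 0 to 16 and 0 to 4. For the difference between genotypes (23 and 6), log2(signal + 16) gave 43 higher, array weights 113 and 74, the unadjusted p 163 and 150, and the inter-quartile range filter and median centring 3 lower each, with 15 to 28 and 0 to 15 when 1 array was left out. The cause of these shifts was not tested.

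With replicate number as a block and only the arrays compared, 67 and 59 probesets were called in wild-type liver, 0 and 0 in PPARα -/- liver, and 2 lower for the difference between genotypes. Of the 212 probesets called in wild-type liver in the main fit, 63 were among the 126 called with the block. Without the block, only the arrays compared gave 271 calls, which held 125 of the 212. The fit of the wild-type arrays of the run held 175 of them, and that of all 93 arrays 159. Which probesets were called thus depended on the arrays that gave the spread. Arrays of the same number correlated in their deviations at 0.2, 0.15, 0.06 and 0.13 in wild-type liver (2 of 4 best with their own number) and at 0.22, 0.3, 0, 0.33 and 0.46 in PPARα -/- liver (4 of 5 best with their own number). In both genotypes 1 pair lay under 0.1. The labels do not say what the numbers mark, and the main fit did not take them as pairs. What arrays of the same number share was not tested beyond this block. Only-wild-type arrays cannot give the difference between genotypes, and that fit was not run.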
